A study of Drosophila melanogaster with 15 samples.

Results

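The baseline nuclear transcriptome of the Drosophila mushroom body (MB) was read from the 4 naïve control libraries, out of 15 RNA-seq libraries in the series. These 4 were chosen by their labels alone, as control genotype and naïve treatment. In a w* background the flies carried UAS-unc84::GFP, and UAS-Dicer2 over R14H06-Gal4, so that the R14H06-Gal4 driver expressed both a green fluorescent tag on the nuclear envelope (unc84::GFP) and Dicer2, an enzyme that is often added to strengthen RNA interference. The control genotype as labelled holds no hairpin against trithorax (trx), the gene knocked down elsewhere in the series. Each library came from the heads of a pool of 50 to 60 flies, from which nuclei with the tag were pulled out of whole-head homogenate with antibody-coated beads. The labels give no age, sex or time of day, and they do not say whether the replicates came from separate cultures. The spread given below is therefore the spread between these 4 samples, which may be technical.

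The MB is the insect brain centre for associative olfactory memory, and its intrinsic neurons are the Kenyon cells (KCs). KCs release acetylcholine, receive dopamine as the teaching signal, and need the cAMP pathway for learning. The R14H06 driver is known mainly for its activity in KCs. Isolation of tagged nuclei (INTACT) samples RNA inside the nucleus, where unspliced transcripts, long noncoding RNAs and RNA on its way to the cytoplasm are found, and beads can also retain RNA from nuclei or debris without the tag. Fewer nuclei of a type and less RNA per nucleus cannot be told apart in such bulk libraries.

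Levels are given as CPM, a gene's counts for every 1000000 gene counts of the library without the tag, in the order of replicates 1, 2, 3 and 4 where 4 values are listed. Comparisons between genes use CPM per kb of exon, the union of all annotated exons of a gene, as mean ± SD over the 4 libraries (n = 4). An order given without its measure is per kb of exon. It need not hold per kb of unshared span, the part of the gene from start to end, introns included, that no other gene covers. Of 277 neighbouring pairs within the lists below that were ordered in all 4 libraries per kb of exon, 178 kept that order in all 4 per kb of unshared span, 74 had the opposite order in all 4 and 25 had no fixed order. The libraries held 17869403, 14154045, 24855627 and 26468486 counts on 17559 genes. A count of 3, used below as the floor and as the upper limit for a gene with no counts, was worth 0.113 to 0.212 CPM. Intervals and floors of this kind cover counting error only. The tag itself took 0.470% to 0.626% of all counts.

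A gene was called detected at 1 CPM or more in each of the 4 libraries, which 8266 of the 17559 genes were (47.1%). Protein-coding genes of the nucleus made up 93.9% ± 0.133 of counts, nuclear long noncoding RNA genes 1.80% ± 0.0271 and the mitochondrial genome 0.706% ± 0.243. Detected genes spread widely in level. Among detected genes with readable spans, as defined in the next paragraph, the middle of the distribution lay at 11.2 CPM per kb of exon, the 90th percentile at 67.7 and the 99th at 302.1. The 10 genes with most counts held 6.65% of them, and 387 genes held 50%.

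Genes that lie inside another gene were nearly all silent in these tables, on either strand. Of 1841 protein-coding genes whose span falls wholly within the span of another listed gene, 1829 (99.3%) had a count of 0 in all 4 libraries, against 467 of 11844 (3.94%) that do not. The share was 745 of 752 for genes inside a host on the same strand and 1022 of 1027 for genes inside a host on the opposite strand. The pan-neuronal RNA-binding gene elav (FBgn0260400, X, 509235 to 523226 in BDGP6.54) is a case in point, since 1.43% of its span is free of other genes and it had 0.112, 0.212, 0.0805 and 0.189 CPM. A 0 of such a gene was therefore not read as a lack of RNA. Only genes with at least 50% of their span unshared were counted as readable, 13411 in all, of which 7863 (58.6%) were detected. That share is the background for the counts of detected genes below, and for readable protein-coding genes alone, of which nearly all lists consist, it was 67.6% (7718 of 11423). Not readable, for example, were the arrestin gene Arr2, the glial genes moody and alrm, the syntaxin gene Syx1A, the acetylcholine receptor subunit gene nAChRbeta3, the tyrosine decarboxylase genes Tdc1 and Tdc2, and the insulin-like peptide genes Ilp2 to Ilp6.

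The label was checked against markers of KCs and of the other cells of the head. All 17 KC markers were detected, with a median at percentile 95.1 of readable genes by CPM per kb of exon. Photoreceptor and muscle markers had higher medians on that measure, at 98.2 and 96.4. Markers of glia, fat body, hemocytes, antenna and other transmitter types had lower ones. Per kb of unshared span KC markers were at 87.3, photoreceptor markers at 98.0 and muscle markers at 96.8. The summed level of the KC list was 13519, 13588, 15244 and 14377 CPM. Sums are over all markers listed, readable or not. The KC list includes the Pax6 homologues ey (358, 379, 463 and 399.9 CPM) and toy (654, 635, 752 and 856 CPM), the learning genes rut and dnc, and prt, which encodes a vesicular transporter of KCs (120.2, 138, 164 and 121 CPM). Also on it are the transcription factor genes dac, Mef2, ab, mamo and Hr51, the signalling genes Pka-C1, Dop1R1, Dop1R2, Oamb and sNPF, the adhesion gene Fas2 and trio (873 ± 31.6 CPM). The 5 readable pan-neuronal markers were also all detected, at 8927 to 10645 summed CPM. The defining markers of the labelled tissue were thus present in every library. Several of them, such as rut, Fas2, trio and Mef2, are also known from other cells, and markers of other cells were present too, so that their detection does not by itself identify the tissue.

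Markers of other cells of the head were measured in the same libraries. All 10 readable photoreceptor markers were detected, and their sum of 12278, 14551, 10599 and 16658 CPM overlapped that of the KC markers, largely through the photoreceptor gene ninaE. The 4 muscle markers summed to 8256, 7764, 6486 and 4251 CPM. The 6 listed fat body markers summed to 4967, 5398, 4644 and 6314 CPM, most of it from the lipoprotein gene apolpp. Of 5 readable glial markers 4 were detected, at 781 to 931 summed CPM, and the glial identity gene repo was at 40.8, 46.6, 36.1 and 27.5 CPM. Markers of other transmitter types, 7 of 7 readable, summed to 1346 to 1532 CPM. The 3 readable hemocyte markers, of which 2 were detected, came to 87.3 to 106 CPM. The 4 antennal markers came to 7.55, 44.8, 55.9 and 3.14 CPM, low in all libraries and lowest in replicates 1 and 4. No whole-head fraction was analysed here, so these levels do not say which genes the sort enriched, and the part of other cells in the levels of genes they share with KCs was not tested.

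**Figure D1:**
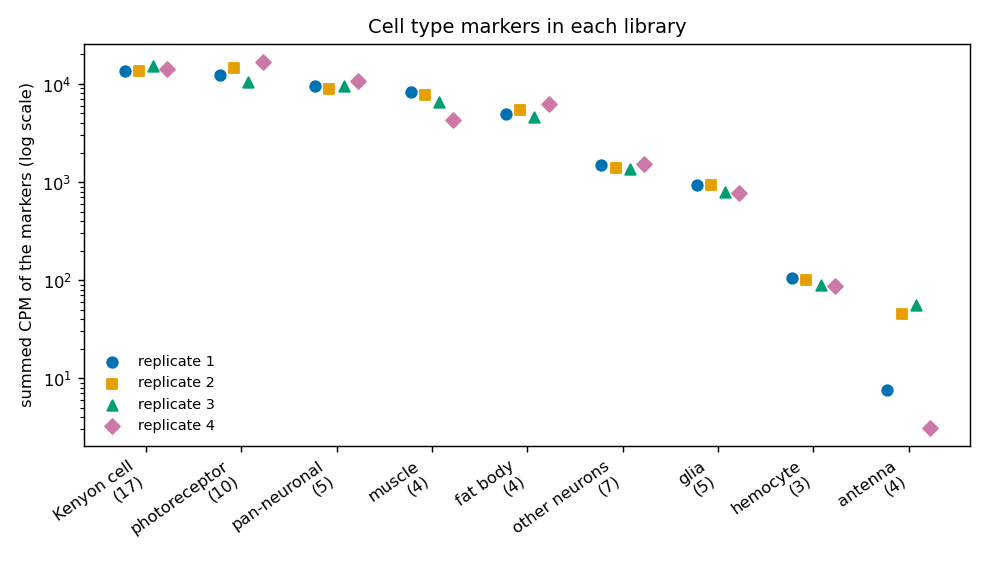
Summed CPM of the listed markers of 9 cell types in each of the 4 naïve control libraries, on a log scale; the number of readable markers is in parentheses and each point is 1 library. KC markers lie between 13519 and 15244 CPM, photoreceptor markers between 10599 and 16658, and muscle markers fall to 4251 in replicate 4.

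Replicate 4 stood apart from the other 3 libraries. Pairs of libraries were compared gene by gene with a chi-square of their counts, which per degree of freedom came to 36.6 to 40.7 in the 3 pairs with replicate 4 and to 6.46 to 10.1 in the other pairs, so that every pair differed by more than counting noise. The correlation of log2(CPM + 1) values (Pearson's r over genes, which are not independent replicates) still lay between 0.988 and 0.995. All 8 readable muscle genes were lowest there, and the mitochondrial share of counts was 0.946%, 0.749%, 0.763% and 0.368%. The listed photoreceptor genes summed to 12754, 15083, 10977 and 17169.9 CPM, highest in replicate 4. ninaE alone held 7117, 8154, 6165 and 10959 CPM of this. Of the readable photoreceptor markers ninaE, ninaC, norpA and Rh6 were highest in replicate 4. Rh3, Rh5, trp, trpl, Arr1 and chp were highest in replicate 2, so the genes did not rise together. Without replicate 4, the number of detected members changed in none of the lists of neuronal, regulatory and cell type genes except the antennal genes, of which 5 rather than 2 of 7 readable members were then detected.

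By total counts, the most abundant coding genes matched to the annotation were mostly genes known from neurons. They also included Msp300, the photoreceptor gene ninaE and the fat body gene apolpp. Msp300, a nesprin that links the nuclear envelope to the cytoskeleton, led with 9912, 10166, 9545 and 8476 CPM. Next came Atpalpha, the catalytic subunit of the sodium pump, with 8456, 8052, 8151 and 10079 CPM, and ninaE with 7117, 8154, 6165 and 10959 CPM. IA-2, a protein of dense-core vesicles, had 7177 ± 365 CPM and Sh, the Shaker potassium channel, had 5484 ± 589 CPM. The RNA-binding gene mub (5395 ± 527 CPM), the transcription factor gene pros (5200.4 ± 721 CPM), apolpp (4620.5 ± 449 CPM), the complexin gene cpx (4062 ± 351 CPM) and the Rac exchange factor gene sif (4036 ± 202 CPM) made up the rest of the first 10. Of these 10, replicate 4 was highest for 9, and it was lowest for Msp300.

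Per kb of exon the order was different. ninaE (FBgn0002940, 3R, 19886255 to 19888206) was first at 5099.9 ± 1305 CPM per kb of exon and also first per kb of unshared span, at 4149 ± 1062. It was followed per kb of exon by CG6503 (1808 ± 461), CG41378 (1389.5 ± 28.6), Atpalpha (1300.1 ± 142), the Y-linked gene Ppr-Y (1280.4 ± 403), the cell surface gene dpr21 (965 ± 44.1), the neuropeptide-like precursor gene Nplp3 (893 ± 171), CG17108 (775 ± 249), the proton pump gene Vha16-1 (708 ± 37.9) and IA-2 (699.7 ± 35.5). Only 4 of these 10 remained among the first 10 per kb of unshared span, namely ninaE, CG6503, CG17108 and Nplp3. CG41378, Ppr-Y and dpr21 hold little exon in spans of 76329, 248273 and 124513 bases, and they dropped to 15.6, 8.82 and 7.69 CPM per kb of unshared span.

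The functional classes differed in where their members sat. The medians of release machinery, channels, adhesion genes and the receptors of acetylcholine and dopamine lay above the upper quartile of detected genes, whereas few members of the chemoreceptor families were detected. The lists of coding genes below were read against the background of 67.6% detected.

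**Figure D2:**
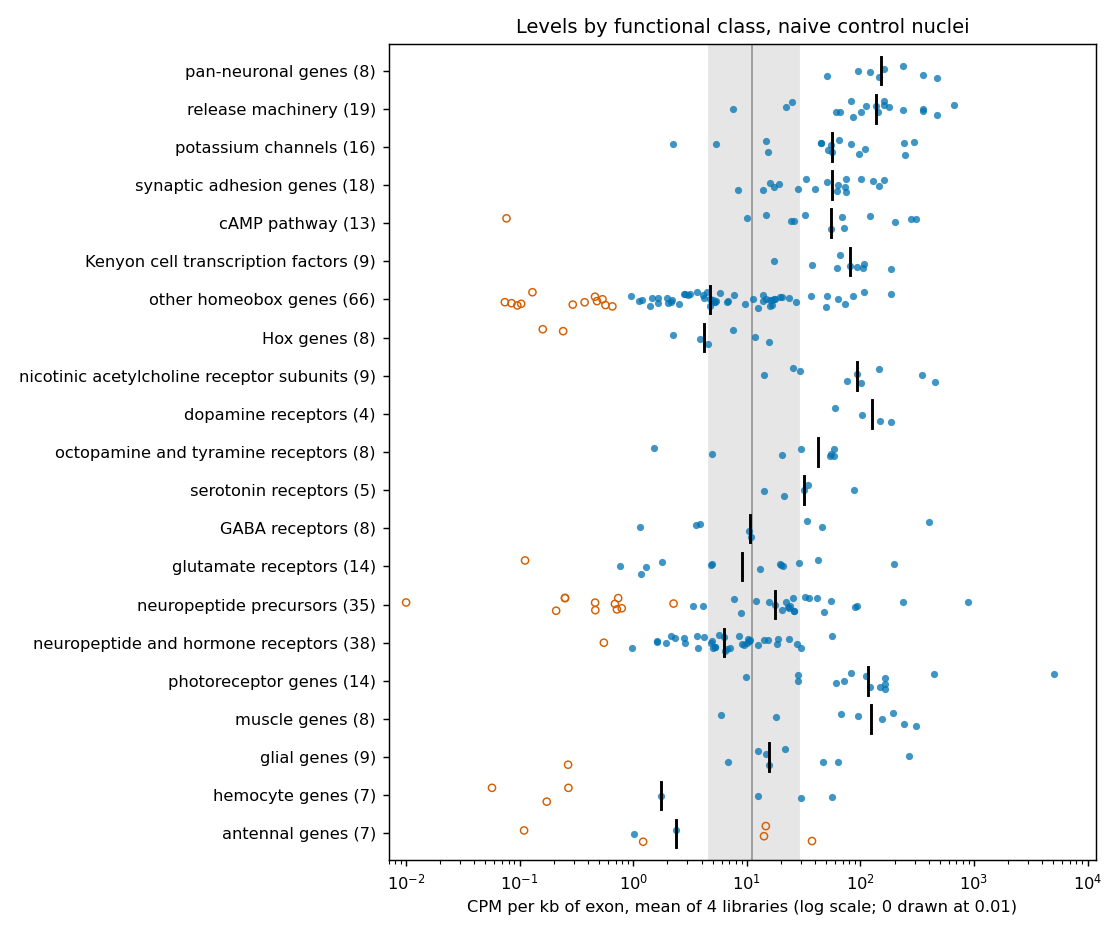
Mean CPM per kb of exon (n = 4 libraries, log scale) of the readable genes of 21 functional classes, with the number of genes in parentheses; filled points were detected at 1 CPM or more in all 4 libraries, open points were not, and black bars are class medians. The grey band spans the quartiles of all detected readable genes (4.62 to 28.8) and the grey line their median of 11.2; dopamine receptors, nicotinic subunits and release machinery have medians to the right of the band, and the medians of Hox, hemocyte and antennal genes lie left of it.

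Genes of transmitter release were at the top of the range. All 19 readable members were detected, with a class median at percentile 97.8. The SNARE genes Snap25 and nSyb stood at 673 ± 15.3 and 475 ± 49.4 CPM per kb of exon, and the calcium sensor gene Syt1, the clamp gene cpx and the active zone gene brp at 358 ± 41.1, 356 ± 30.8 and 239 ± 9.46. Snap25 depended on the measure of length, since its span of 225026 bases brought it to 6.84 ± 0.156 CPM per kb of unshared span, under nSyb in all 4 libraries. nSyb exceeded Syt1 by 1.33 ± 0.0248-fold per kb of exon, in 4 of 4 libraries and on both measures. Syt1 and cpx did not differ beyond their spread per kb of exon (ratio 1.01 ± 0.0441, higher in 2 of 4 libraries), whereas per kb of unshared span cpx was higher in all 4. The least abundant member was Nsf2, a fusion ATPase gene, at 7.58 ± 0.933. The other pan-neuronal genes, among them the microtubule-associated gene futsch (3372 ± 106 CPM) and the RNA-binding genes fne (1165 ± 129.6 CPM) and Rbp9 (765 ± 38.7 CPM), were also high in each library, as were the dense-core vesicle gene Cadps (922 ± 64.4 CPM) and the transcription factor gene onecut (344 ± 36.4 CPM).

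All channel genes that were matched by gene ID were detected, 16 of 16 for potassium and 6 of 6 for sodium and calcium. The calcium-activated channel gene slo (299 ± 33.5), Shab (247 ± 19.7) and Sh (241 ± 25.8 CPM per kb of exon) led the potassium channels. Shab and Sh did not differ beyond their spread (ratio 1.03 ± 0.064, higher in 3 of 4 libraries). SK (109 ± 13.3) and the hyperpolarization-activated channel gene Ih (97.6 ± 8.40) came next. Their order reversed per kb of unshared span, SK being at 18.3 ± 2.23 and Ih at 51.8 ± 4.46, with Ih higher in 4 of 4 libraries. The inward rectifier genes Irk1 and Irk3 were the lowest on both measures, Irk3 at 4.73 ± 0.808 CPM. Among calcium channels the presynaptic gene cac reached 2123 ± 197 CPM and Ca-alpha1T, of the low-voltage type, 1629 ± 112 CPM. NaCP60E (1379.8 ± 36.2 CPM), Ca-alpha1D (632 ± 39.7 CPM), the accessory subunit gene stj (494 ± 23.3 CPM) and the leak channel gene na (219.8 ± 14.8 CPM) were lower. The sodium channel gene para and the calcium channel gene Ca-beta were listed but not matched by gene ID, so they were not analysed here.

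Surface genes for synaptic partner choice were also broadly detected. All 21 dpr genes, all 13 readable beat genes, all 7 readable side genes and 10 of 11 DIP genes passed, and DIP-iota did not. The dpr and DIP products bind each other, as do the beat and side products. The highest were dpr21 and dpr12 (198 ± 12.9 CPM per kb of exon), side-VI (95.3 ± 5.11), DIP-lambda (74.5 ± 5.61) and beat-VI (65.0 ± 1.599). On the unshared span dpr21 was below dpr12 (ratio 0.465 ± 0.02) and DIP-lambda below DIP-gamma (ratio 0.129 ± 0.0104), each in 4 of 4 libraries. Of the larger adhesion genes all 18 readable members were detected, from the phosphatase gene Lar (163 ± 4.41), the neurexin gene Nrx-1 (146 ± 11.6) and the teneurin gene Ten-a (130.4 ± 6.07) through Nlg3 (101 ± 5.24) and Dscam2 (74.3 ± 4.83) down to the neuroligin gene Nlg1 (8.36 ± 1.89). Lar and Nrx-1 did not differ beyond their spread per kb of exon (ratio 1.12 ± 0.0931, higher in 3 of 4 libraries). Nrx-1 was first per kb of unshared span, at 85.3 ± 6.77, followed by Dscam2 at 31.2 ± 2.03, while Lar was at 12.1 ± 0.328, below Nrx-1 in all 4 libraries. Fas2, the adhesion gene used as a label of KC axon lobes, had 517, 529, 539.9 and 548 CPM.

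Transmitter genes were measured at moderate levels, and ChAT was lower than Gad1 and VGlut, genes for GABA and glutamate. ChAT, which encodes the enzyme that makes acetylcholine (FBgn0000303, 3R, 18705501 to 18732344), had 124, 113, 117 and 117 CPM. The choline transporter gene ChT had 302, 299, 331 and 312 CPM and Ace, the acetylcholinesterase gene, 771, 782, 726 and 892 CPM. ChT exceeded ChAT by 2.23 ± 0.14-fold per kb of exon, in 4 of 4 libraries on both measures. Ace was above ChT per kb of exon and below it per kb of unshared span. VAChT, whose gene lies inside the ChAT locus, was not analysed here. Counts on bases that it shares with ChAT may not have been given to ChAT. Neither length used for ChAT leaves these bases out. How far this lowered ChAT, and raised the ratios of other genes to it, was not tested.

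Among genes of other fast transmitters Gad1 and VGlut exceeded ChAT on both measures of length. Gad1, the enzyme gene for GABA, had 428, 382, 376 and 313 CPM, which was 3.46 ± 0.381 times ChAT per kb of exon and higher in 4 of 4 libraries. The vesicular glutamate transporter gene VGlut had 305, 292, 271 and 271 CPM, or 1.69 ± 0.088 times ChAT on the same measure. Per kb of unshared span both ratios were larger, at 5.71 ± 0.63 and 5.68 ± 0.295. Gad1 was above VGlut per kb of exon in 4 of 4 libraries (2.04 ± 0.178-fold), whereas per kb of unshared span the ratio was 1.00 ± 0.0875 and the genes did not differ beyond their spread. The vesicular GABA transporter gene VGAT had 92.5, 88.6, 83.7 and 56.7 CPM, with replicate 4 lowest. It was below ChAT in every library by CPM, and per kb of exon its mean of 29.8 was close to the 29.4 of ChAT. The GABA transaminase gene Gabat had 102, 116, 105 and 93.2 CPM. The GABA reuptake gene Gat had 35.4 ± 6.29 CPM, the glutamate dehydrogenase gene Gdh 346 ± 49.6 CPM and Eaat2, a transporter gene of the glutamate family, 245 ± 20.7 CPM. KCs are known as cholinergic cells, and whether the Gad1 and VGlut counts came from them was not tested.

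Monoamine genes followed. Vmat, the vesicular transporter of dopamine, serotonin and octopamine, was highest at 597, 546, 565 and 803 CPM, with replicate 4 above the others. It exceeded ple, the tyrosine hydroxylase gene of dopamine synthesis (106, 100.3, 87.4 and 94.0 CPM), by 3.05 ± 0.663-fold per kb of exon. Cofactor and shared synthesis genes lay between these, with Hn at 46.4 ± 4.05, Pu at 42.1 ± 2.42 and Ddc at 31.1 ± 1.26 CPM per kb of exon. The reuptake genes of serotonin and dopamine were low, SerT at 32.6, 36.2, 30.7 and 30.7 CPM and DAT at 21.7, 23.1, 22.4 and 28.5 CPM. Trhn, the neuronal tryptophan hydroxylase gene for serotonin, had 7.05, 7.42, 7.28 and 5.63 CPM, the lowest of these 8. Tbh, the enzyme gene for octopamine, had 117, 102, 126 and 132 CPM, and Hdc, for histamine, the photoreceptor transmitter, 30.9, 41.6, 30.5 and 33.0 CPM. The histamine recycling genes t, e and CarT had means of 48.9, 25.5 and 7.83 CPM, and replicate 2 was highest for t and CarT.

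**Figure D3:**
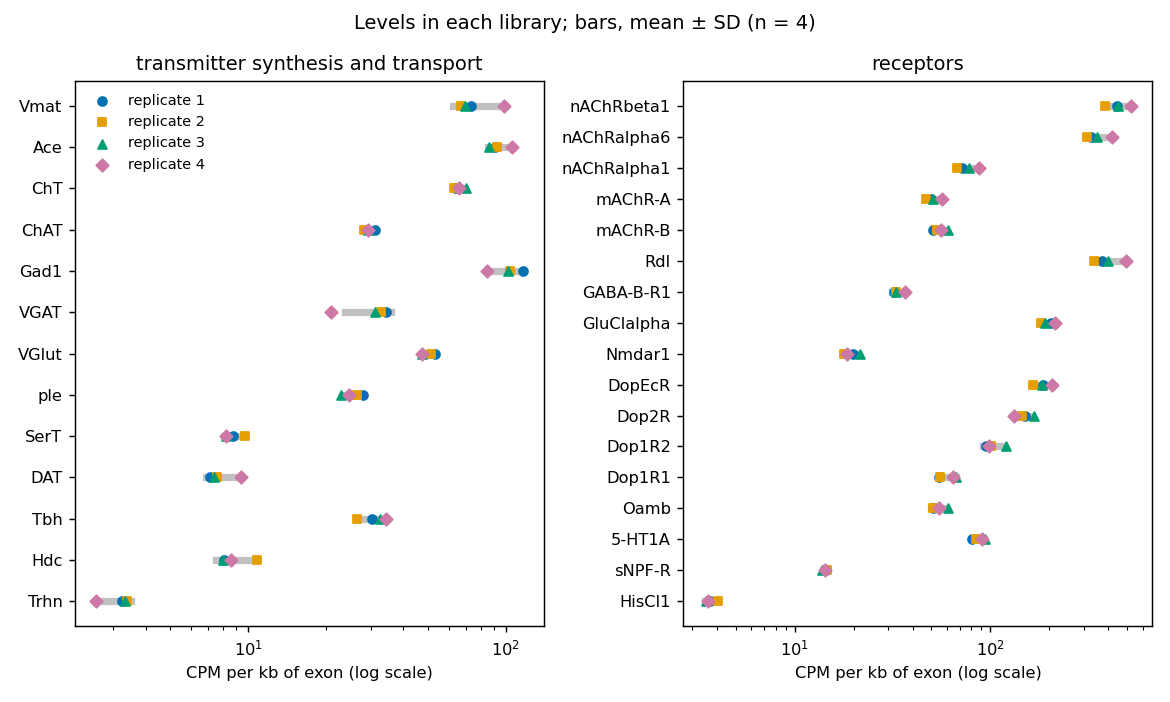
CPM per kb of exon (log scale) of 13 genes of transmitter synthesis and transport and of 17 receptor genes in each of the 4 naïve control libraries, with grey bars for mean ± SD (n = 4). Gad1 and VGlut lie to the right of ChAT in every library, and nAChRbeta1 and Rdl lie furthest right among the receptors plotted.

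Receptors of acetylcholine included some of the highest receptor genes. All 9 readable nicotinic subunits were detected, with a class median at percentile 96.1. nAChRbeta1 led with 1316, 1152, 1339 and 1558 CPM (451 ± 56.0 per kb of exon), followed by nAChRalpha6 with 2553, 2419, 2725 and 3250.0 CPM (352 ± 46.8). The step between these was 1.28 ± 0.0467-fold, in 4 of 4 libraries. Below them came nAChRalpha5 (147 ± 16.4), nAChRalpha4 (100.3 ± 2.74), nAChRalpha7 (92.9 ± 8.83), nAChRalpha1 (76.2 ± 8.71), nAChRalpha3 (29.3 ± 0.957), nAChRalpha2 (25.6 ± 1.85) and nAChRbeta2 (14.2 ± 2.02). nAChRalpha4 and nAChRalpha7 did not differ beyond their spread (ratio 1.09 ± 0.0906, higher in 3 of 4 libraries). Per kb of unshared span nAChRbeta1, nAChRalpha6 and nAChRalpha5 kept the first 3 places, nAChRalpha7 was above nAChRalpha4 and nAChRalpha2 above nAChRalpha3, each in 4 of 4 libraries. The beta subunits lay far apart, nAChRbeta1 being 31.8 ± 1.48 times nAChRbeta2. For 7 of the 9, replicate 4 was highest. The muscarinic genes mAChR-B and mAChR-A, which act through G proteins, were at 55.3 ± 4.24 and 51.0 ± 4.12 CPM per kb of exon. On that measure they did not differ beyond their spread (ratio 1.09 ± 0.0984, higher in 3 of 4 libraries). Per kb of unshared span mAChR-A was higher in 4 of 4 libraries.

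Among GABA and glutamate receptors a single channel gene led each class. Rdl, the subunit of the ionotropic GABA receptor, had 3327, 3056, 3581 and 4445 CPM, 8.76 ± 1.82 times the metabotropic GABA-B-R2 per kb of exon. GABA-B-R2 and GABA-B-R1 had means of 46.1 and 33.6, and Lcch3, GABA-B-R3, alka, Grd and CG8916 lay between 1.14 and 10.98 CPM per kb of exon. GluClalpha, the glutamate-gated chloride channel, had 1354, 1199, 1265 and 1417 CPM, 4.64 ± 0.39 times GluRIB of the AMPA type. GluRIA and KaiR1D, of the AMPA and kainate types, were at 28.6 ± 1.65 and 20.8 ± 1.56 CPM per kb of exon. Nmdar1, the NMDA receptor subunit used in memory, had 82.9, 74.7, 89.5 and 77.2 CPM, and the metabotropic mGluR 114.8, 123, 134 and 137 CPM, which did not differ beyond their spread per kb of exon (ratio 1.03 ± 0.111). The neuromuscular subunits GluRIIA, GluRIIC, GluRIID and GluRIIE had means of 2.64 to 5.81 CPM, and GluRIIB was not detected, at 0.201 to 0.495 CPM. Nmdar2 was not readable.

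Dopamine receptors were among the highest receptor classes, all 4 detected with a median at percentile 97.3. DopEcR, which binds dopamine and ecdysone, had 799.9, 712, 787 and 883 CPM, or 185 ± 16.3 per kb of exon. Dop2R, coupled to inhibition of adenylyl cyclase, had 983, 942, 1090.0 and 865 CPM (149 ± 14.4). Dop1R2, the DAMB receptor, had 491, 519, 621 and 505 CPM (103 ± 11.4), and Dop1R1, needed in KCs for learning, 792, 808, 973 and 941 CPM (60.3 ± 6.31). This order per kb of exon held in 4 of 4 libraries at each step. Per kb of unshared span DopEcR stayed first at 65.7 ± 5.78, and Dop1R2, Dop1R1 and Dop2R could no longer be told apart at 17.99 ± 1.99, 17.8 ± 1.86 and 17.1 ± 1.65. Replicate 3 was the highest library for Dop2R, Dop1R2 and Dop1R1.

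Octopamine and serotonin receptors were mostly lower. Octalpha2R, Octbeta1R, Octbeta2R and Oamb lay together between 54.3 and 59.1 CPM per kb of exon, and neighbours in this order did not differ beyond their spread on that measure. Octbeta3R (29.8 ± 0.679), Oct-TyrR (20.3 ± 0.799), TyrR (4.91 ± 0.574) and TyrRII (1.52 ± 0.196) followed in the same order in all 4 libraries. Of the 5 serotonin receptors 5-HT1A was first at 406, 422, 468 and 453 CPM, 2.52 ± 0.232 times 5-HT7 per kb of exon. 5-HT7 (34.6 ± 1.86) and 5-HT1B (31.6 ± 2.30) did not differ beyond their spread per kb of exon, and 5-HT2A (21.2 ± 1.75) and 5-HT2B (14.2 ± 0.708) were lowest on that measure. Per kb of unshared span 5-HT1B was first, at 12.6 ± 0.919 against 8.27 ± 0.535 for 5-HT1A. The histamine channel genes ort and HisCl1, which act downstream of photoreceptors, were among the lowest receptors, ort at 7.33, 10.4, 5.31 and 5.89 CPM and HisCl1 at 6.88, 7.63, 6.598 and 6.72 CPM.

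Neuropeptide precursors ranged from some of the most abundant transcripts to none. Of 35 readable precursors 24 were detected, a share of 68.6%, close to the 67.6% of readable coding genes. Nplp3 was highest per kb of exon, at 497, 417, 404 and 604 CPM and 893 ± 171 CPM per kb of exon, followed by sNPF, the short neuropeptide F gene that marks KCs, at 507, 564, 665 and 608 CPM and 239 ± 27.4 CPM per kb of exon. Replicates 3 and 4 were higher than 1 and 2 for sNPF. AstC, for allatostatin C, had 90.5, 91.8, 84.3 and 183 CPM, and CCHa2 124, 131, 132 and 138 CPM. These could not be ordered, since AstC stood at 84.3 to 91.8 CPM in 3 libraries and far above that in replicate 4. Trissin behaved likewise, with 15.4, 14.5, 15.3 and 32.9 CPM. Ms, for myosuppressin, closed the first 5 with 64.2, 65.0, 50.6 and 79.5 CPM. The clock peptide gene Pdf had 12.6, 14.2, 8.89 and 12.5 CPM and the feeding peptide gene NPF 15.9, 13.8, 11.99 and 21.2 CPM, which per kb of exon came to 17.7 ± 3.31 and 26.3 ± 6.61. The 11 readable precursors that were not detected all had means under 1 CPM, among them Akh and CCAP, and RYa had no count in any library. Its upper limit at this depth is 0.113 to 0.212 CPM per library.

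Receptors for peptides were nearly all detectable but low. Of 38 readable receptors 37 were detected, with a median of 21.7 CPM, and CapaR was not (0.672, 0.636, 0.644 and 2.08 CPM). The receptor tyrosine kinase gene Alk was highest at 549, 554, 572 and 523 CPM. The sex peptide receptor gene SPR (109, 112, 106 and 119 CPM), AstA-R1 (99.3, 111, 88.8 and 111 CPM), Pdfr (115.1, 114, 98.9 and 115.2 CPM) and AstC-R1 (57.1, 53.9, 48.8 and 58.4 CPM) followed per kb of exon, whereas per kb of unshared span Pdfr was above AstA-R1 in 4 of 4 libraries. sNPF-R, the receptor for sNPF, had 68.7, 69.6, 65.4 and 67.5 CPM, and its ligand gene exceeded it by 16.8 ± 2.34-fold per kb of exon. The class median fell from percentile 60.9 per kb of exon to percentile 44.5 per kb of unshared span, so its place relative to other genes rests on the measure of length.

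The cAMP pathway, through which KCs register coincident odour and reward or punishment, was detected in 12 of 13 readable members. Pka-C1, the catalytic subunit of protein kinase A, had 1683, 1665, 1830.1 and 1923 CPM and 310.1 ± 21.5 CPM per kb of exon. The regulatory subunit genes Pka-R2 and Pka-R1 had means of 1366 ± 128 and 631 ± 67.0 CPM. rut, the calcium-responsive adenylyl cyclase of learning (FBgn0003301, X, 14787478 to 14826073), had 1841, 1903, 2247 and 1806 CPM and was 6.23 ± 0.558 times the next cyclase gene, Ac3, per kb of exon. The phosphodiesterase gene dnc had 1153, 1204, 1272 and 1159 CPM, and Galphas 114, 118, 113 and 118 CPM. The cyclase genes Ac13E, Ac76E and Ac78C lay at 24.7 ± 2.18, 14.9 ± 1.85 and 9.99 ± 1.23. Pka-C2 was not detected, at 0 to 0.302 CPM, and the anchoring gene rg was not readable. Replicate 3 was highest for rut and dnc.

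Other memory genes gave 15 detected of 15 readable members. 14-3-3zeta, the leonardo adaptor gene, led with 1923, 1786, 1972 and 2672 CPM and was highest in replicate 4. The kinase genes CaMKII (765, 738, 766 and 744 CPM) and gish (505 ± 19.3 CPM) and the translational repressor gene pum (1508, 1533, 1569 and 1606 CPM) varied little. The scaffold gene CASK and the adhesion gene klg had 1244 ± 26.1 and 496 ± 21.1 CPM. CrebB, the CREB transcription factor of long-term memory, had 111, 105, 101 and 96.9 CPM, its coactivator gene crtc 188, 182, 192 and 180.1 CPM, and the fragile X gene Fmr1 211, 187, 205 and 231 CPM. orb2, a translation regulator of memory, had 5.65, 8.69, 8.97 and 13.9 CPM but only 1.10% of its span is unshared, so its low value was not read.

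The transcription factor genes of KCs that were matched by gene ID were all detected, 9 of 9, with a median at percentile 95.4. The listed gene br was not matched and was not analysed here. toy was highest per kb of exon at 185 ± 26.0, 1.72 ± 0.221 times its relative ey. ey (108 ± 12.2) and Eip93F (106 ± 4.58), an ecdysone-response gene, did not differ beyond their spread, ey being higher in 1 of 4 libraries. mamo (92.6 ± 6.04), Mef2 (80.9 ± 6.46), dac (66.7 ± 9.07), ab (62.3 ± 2.73), chinmo (37.8 ± 5.02) and the nuclear receptor gene Hr51 (17.3 ± 1.52) followed. By total counts mamo was first with 2746, 2495, 2747 and 2928 CPM. chinmo, a gene of early-born KCs, was at 438 to 453 CPM in replicates 1 to 3 and at 571 in replicate 4.

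Activity-regulated and clock factors lay lower. Among the 8 activity-regulated genes Mef2 was followed by kay, the Fos gene (595, 567, 565 and 465 CPM), Atf3 (287, 278, 262 and 259 CPM) and Hr38, an immediate early nuclear receptor gene (225, 236, 274 and 212 CPM). sr, the Egr gene, had 145, 114.9, 149.9 and 141 CPM, Jra, the Jun gene, 36.3, 35.2, 40.0 and 31.2 CPM, and Ets21C 4.92, 3.46, 5.95 and 2.72 CPM. Of the 8 clock genes, which drive the daily rhythm, Pdp1 was highest at 1159, 1098, 1052 and 1132 CPM. cwo (211 ± 13.6 CPM), vri (128 ± 13.3 CPM), tim (105 ± 15.9 CPM), Clk (96.7 ± 13.7 CPM), cry (71.1 ± 10.97 CPM), per (44.8 ± 5.37 CPM) and cyc (28.6 ± 2.06 CPM) made up the rest. As clock transcripts cycle and the labels give no hour, these levels hold for the unknown hour of collection.

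Nuclear receptors were detected in 15 of 18 readable members. The ecdysone response genes Eip75B and EcR led with means of 846 ± 55.2 and 621 ± 6.05 CPM, and per kb of exon, at 62.9 ± 4.10 and 62.5 ± 0.609, they were close. EcR varied little, with a coefficient of variation (CV) beyond counting of 0.849%. Hr39 (201 ± 4.14 CPM), Hr38 and Eip78C (163 ± 9.65 CPM) came next. tll, a gene of neural progenitors, was not detected, at 0 to 0.212 CPM, nor were eg and Hr83.

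Homeobox genes spread over the whole range, 54 of 66 readable members outside the Hox clusters being detected. After toy and ey the highest were hth (86.9 ± 3.73), pdm3 (73.0 ± 4.28) and zfh2 (63.7 ± 2.56 CPM per kb of exon). The last 2 changed places per kb of unshared span, where zfh2 was above pdm3 in 4 of 4 libraries, at 21.7 ± 0.872 against 6.82 ± 0.4. Several at the bottom, such as eve (0.0707 to 0.282 CPM), prd (0 to 0.529 CPM) and tin (0.056 to 0.282 CPM), are genes of embryonic patterning or heart. The Hox genes of the head were above those of the abdomen. Dfd, Scr, pb, lab and Antp, the head and anterior trunk genes, were at 15.8 ± 1.17, 11.9 ± 1.17, 7.53 ± 0.647, 4.57 ± 0.36 and 3.88 ± 0.598 CPM per kb of exon and Ubx at 2.23 ± 0.715. The abdominal genes abd-A and Abd-B were not detected. abd-A had 0, 0.212, 1.49 and 3.59 CPM and Abd-B 0.392, 0.353, 1.65 and 5.14 CPM, both highest in replicate 4. The noncoding RNA iab8 of the same cluster had 0.168, 0, 2.21 and 9.37 CPM, likewise highest there.

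The trithorax and Polycomb groups, which keep genes active or silent, were detected in 11 of 11 readable members. trx itself, a methyltransferase gene for H3K4, had 577, 602, 588 and 599.6 CPM and was the highest of the list per kb of exon at 42.1 ± 0.826, above pho in 4 of 4 libraries by 1.06 ± 0.0505-fold, with a CV beyond counting of 2.40%. pho (94.6 ± 4.09 CPM), Set1 (197 ± 19.6 CPM), brm (184 ± 11.2 CPM) and Pc (67.8 ± 5.71 CPM) were the next 4 on that measure. Per kb of unshared span trx (25.9 ± 0.508), brm (26.7 ± 1.63) and Set1 (26.8 ± 2.67) lay close together at the top. E(z), the H3K27 methyltransferase gene, had 19.98, 20.3, 20.7 and 21.7 CPM, and esc was not readable.

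Noncoding RNAs were few but some were abundant. Of 1452 readable genes of this biotype 124 (8.54%) were detected, and of all 2583, readable or not, 133. Of all counts 1.80% ± 0.0271 fell on nuclear long noncoding RNA genes. Hsromega, the heat shock RNA of nuclear speckles, had 7124, 6724, 7333 and 7565 CPM, behind only Msp300, Atpalpha and ninaE among all listed genes by mean CPM. CR42862 (3178 ± 186 CPM) and roX1 (2233, 2325, 2092 and 2074 CPM) came next among nuclear ones. roX1 and roX2 act in dosage compensation of the male X chromosome, and roX1 was 4.06 ± 0.382 times roX2 (127, 138, 127 and 148 CPM) per kb of exon. mimi (1801, 1758, 1711 and 2081 CPM), CR45054 (479.6 ± 22.6 CPM), CR43459 (399.9 ± 31.7 CPM), CR44997 (311 ± 10.1 CPM) and CR46006 (279 ± 9.73 CPM) completed the nuclear members of the first 10. let7C, the host of the let-7 complex, had 111, 115.2, 108 and 109.5 CPM, cherub 18.7 ± 3.67 CPM and the piRNA precursor flam 9.23 ± 0.858 CPM, while CR33938 and Yu were not detected. Of 3 readable genes in the list of structural RNAs only 7SK, which restrains transcription elongation, was detected, whereas the readable 7SL genes were not. The 7SK RNA had 207, 288, 199 and 56.8 CPM, with replicate 4 far below the others.

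Mitochondrial RNA was led by its large ribosomal RNA, mt:lrRNA, with 5559, 4132, 4182 and 1289.7 CPM. The small ribosomal RNA, mt:srRNA, had 737, 596, 565 and 148 CPM. Both were lowest in replicate 4. The cytochrome oxidase genes mt:CoI (1348, 1081, 1073 and 887 CPM) and mt:CoIII (822, 798, 840.1 and 797 CPM) fell less or not at all there, so the mitochondrial genes did not move as 1 block.

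By chromosome, the small chromosome 4 stood out from the X and the large autosomal arms in level per kb of exon. Medians by chromosome were not computed per kb of unshared span. Of its 74 readable coding genes 73 were detected, and the detected genes had a median of 42.8 CPM per kb of exon against 10.5 to 12.6 on the X and the large autosomal arms. Several genes named above lie on it, including toy, ey, zfh2, onecut, CaMKII, unc-13, Cadps and apolpp. Y-linked genes took 0.400%, 0.463%, 0.559% and 0.734% of counts, and 6 of 20 readable coding genes were detected. The median of these 6 was 107.6 CPM per kb of exon, above that of chromosome 4. Most of these counts came from Ppr-Y (1501, 2027, 2084 and 3145 CPM), ORY (1373, 1217, 1888 and 2613 CPM), kl-5 (578, 829, 864 and 839 CPM) and CCY (532, 546, 743 and 714 CPM), which are known mainly from the male germline.

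Non-neuronal and visual genes were led by photoreceptor transcripts. ninaE exceeded the synaptic gene Syt1 by 14.1 ± 2.44-fold per kb of exon, in 4 of 4 libraries. The arrestin gene Arr1 had 1057, 1354, 910.4 and 1094 CPM, and the phototransduction genes norpA, trp and trpl means of 1367 ± 190.3, 623 ± 114 and 639 ± 125 CPM. ninaC, a myosin gene of the light-sensing organelle, had 897 ± 162 CPM. The opsin genes of single ommatidial types were far lower, Rh3 at 169, 219, 133 and 159, Rh6 at 92.8, 116, 75.5 and 117, Rh5 at 48.3, 57.7, 33.1 and 39.6 and Rh2, of the ocelli, at 40.0, 43.6, 24.7 and 44.5 CPM. Replicate 3 was lowest for every 1 of these 4 opsins and for ninaE, Arr1, norpA and trp. The eye transcription factor gene gl had 31.6, 40.9, 27.2 and 32.8 CPM.

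Muscle genes spread widely between the libraries. Mhc, the myosin heavy chain gene, had 2712, 2619, 2136 and 1293 CPM, the titin-like genes sls and bt means of 3995 ± 969 and 2654 ± 706 CPM, and the troponin gene up 688, 549, 465 and 274 CPM. Act79B, a muscle actin gene, had 331, 303, 284 and 85.6 CPM. All 8 readable members were detected and each was lowest in replicate 4. Act88F, the actin gene of flight muscle, was lowest of the list at 11.1, 11.9, 10.1 and 4.87 CPM. Act57B (529.5 ± 130.1 CPM) and TpnC73F (19.1 ± 2.77 CPM) were the other readable members.

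Among glial, fat body, blood and tracheal genes the fat body gene apolpp had by far the most counts. Gs2, the glial glutamine synthetase gene, had 650.2, 629.6, 543 and 546 CPM and Eaat1, the glutamate transporter gene, 211, 227, 189 and 167 CPM, while gcm, the embryonic glial switch gene, was not detected (0.34 to 0.885 CPM). The glial genes nrv2, drpr, Indy, zyd and wrapper had means from 29.3 to 168 CPM, and wrapper was highest in replicate 4. apolpp had 4499, 4902, 4041 and 5040.0 CPM, the lipid droplet gene Lsd-1 79.6 ± 5.68 CPM and the amylase gene Amy-p 43.1 ± 7.90 CPM, whereas the yolk protein gene Yp2 and the larval gene Fbp1 were not detected. Lsp2, a storage protein gene, had 455, 484, 595 and 1265 CPM, but only 15.4% of its span is unshared. The peroxidasin gene Pxn led the blood cell list with 316, 356, 385 and 274 CPM, and the hemocyte gene Hml had 26.7, 21.8, 16.7 and 17.8 CPM, while NimC1 was not detected (0.707 to 1.13 CPM) and neither were eater and He. The scavenger receptor gene crq and the GATA factor gene srp had 85.7 ± 0.944 and 73.9 ± 4.61 CPM. In the tracheal and epidermal list grh had 118, 130.5, 106 and 109 CPM and Gasp 34.7, 30.8, 27.4 and 29.2 CPM, with serp and verm, of chitin metabolism, at 11.5 ± 1.46 and 9.55 ± 2.61 CPM. The germline genes aub and bam had 1.06 to 3.11 and 0 to 0.302 CPM.

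Chemoreceptor families had few detected members. Of 45 readable odorant receptors 3 were detected, Or63a (5.32 ± 0.19 CPM), Or43b (2.51 ± 0.742 CPM) and Or65c (2.07 ± 0.509 CPM), and of 46 gustatory receptors 1, Gr66a (1.502 ± 0.381 CPM). Among 50 ionotropic receptors 7 were, with Ir41a highest at 18.6 ± 2.90 CPM. The odorant-binding proteins, which are secreted by support cells, were detected in 16 of 40 and reached 438, 489, 443 and 269 CPM for Obp19d and 327, 324, 302 and 235 CPM for Obp99c. The coreceptor gene Orco had 3.25, 7.21, 5.79 and 2.38 CPM. Ir25a had 2.91 to 4.81 CPM, and Ir8a, lush and Obp83b did not reach 1 CPM in every library.

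Genes of general cell function were mostly detected. Of 80 readable cytosolic ribosomal protein genes 73 were detected, with a median at percentile 97.7, and RpL23 was highest at 494 ± 29.7 CPM per kb of exon. The 7 that were not detected (RpS28-like, RpS28a, RpS5b, RpL22-like, RpL37-2, RpS19b and RpL10Aa) bear the names of second copies, and reads shared by near-identical copies are uncertain in such counts. All 67 readable mitochondrial ribosomal protein genes were detected, at a median of 7.73 CPM, and 29 of 42 proteasome genes (69.05%), close to the coding background of 67.6%. Apart from Prosalpha1, the proteasome genes that were not detected carry the R or T suffix of second copies known from the testis. Act5C, a cytoplasmic actin gene, had 993, 945, 1021 and 1159 CPM, 29.0 ± 3.02 times Act42A per kb of exon. The common reference gene RpL32 had 102, 103, 98.4 and 61.8 CPM, so that replicate 4 was well below the other 3, and Tbp had 3.86, 4.59, 4.55 and 3.59 CPM. Among the other reference genes eEF2 (914 ± 97.0 CPM), alphaTub84B (377 ± 37.1 CPM), Gapdh2 (236 ± 14.6 CPM), Gapdh1 (208 ± 41.6 CPM) and SdhA (266 ± 42.0 CPM) were also lowest in replicate 4.

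The measure of length moved some classes. Detected coding genes free of overlap were split into quartiles of intron content. Their median CPM per kb of exon rose from 6.72 in the lowest quartile to 22.8 in the highest. Per kb of unshared span the medians from the lowest to the highest quartile were 6.51, 8.18, 12.003 and 6.04. The span medians also varied with intron content, but did not rise throughout. A gene with long introns thus ranked higher per kb of exon than a compact gene. The median of KC transcription factors moved from percentile 95.4 to 86.8 and that of nicotinic subunits from 96.1 to 83.0, while photoreceptor genes were at 97.1 and 97.3.

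**Figure D4:**
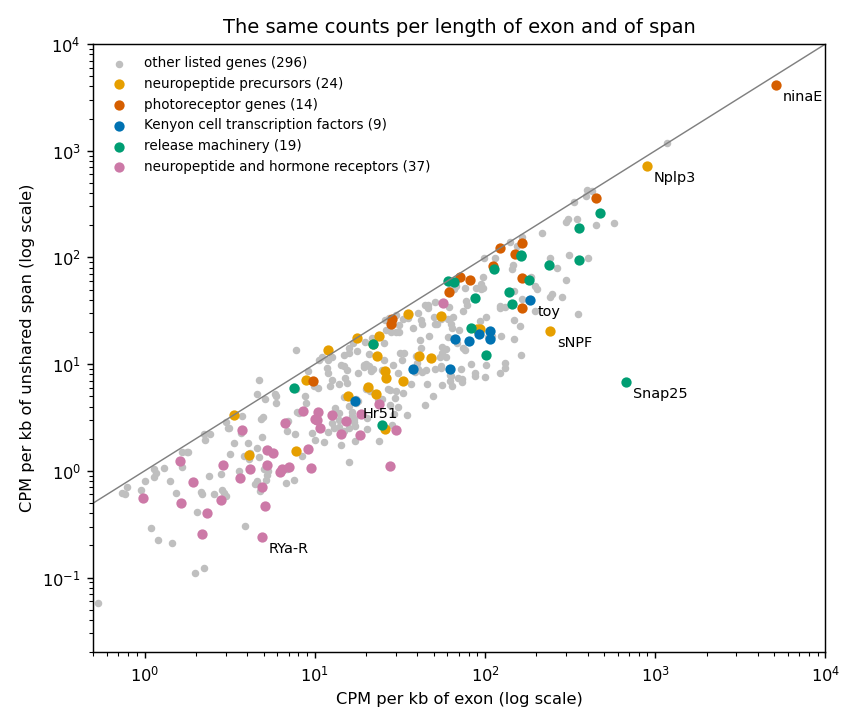
CPM per kb of exon against CPM per kb of unshared span for the detected readable genes of all lists, both on log scales and as means of 4 libraries, with 5 classes in colour and equal values on the grey line. ninaE and Nplp3 lie near the line, whereas Snap25 falls from 673 to 6.84 and sNPF from 239 to 20.6.

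Replicate spread was small for most genes. After TMM scaling the median CV over the 4 libraries was 8.87% in the 5701 genes with a mean of 10 CPM or more, of which counting gives 3.05%, so that 8.12% lay beyond counting. It was under 10% for 3539 genes (62.1%). Among the steadiest were the signalling gene Dad (143, 141, 145 and 141 CPM), the channel gene KCNQ (170.0, 179, 175 and 167 CPM) and zfh1 (103, 106, 102 and 97.4 CPM). Replicate 4 accounted for much of the spread, since the median without it was 4.98%.

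A few genes varied far more, 13 of them by more than 50% beyond counting. The antennal genes a10 (5.15, 26.7, 53.0 and 0.227 CPM), Os-C (2.69, 17.5, 31.1 and 0.0756 CPM) and Obp83a (2.69, 23.8, 31.3 and 0.189 CPM) shared a pattern, high in replicates 2 and 3 and at or near the floor in replicate 4. The stress genes TotC (12.9, 69.6, 23.5 and 4.23 CPM) and TotA (75.6, 238, 87.5 and 26.8 CPM) peaked in replicate 2. The immune-induced gene IBIN (39.5, 5.51, 16.6 and 6.80 CPM) and the antimicrobial peptide genes DptA (136, 52.4, 59.5 and 35.1 CPM) and Dro (475, 151, 188 and 192 CPM) peaked in replicate 1, as did the cuticle gene Cpr100A (20.3, 8.20, 6.72 and 7.82 CPM) and CG4757 (113, 49.5, 34.96 and 83.5 CPM). Lsp2, given above, was highest in replicate 4, with a CV beyond counting of 56.4%. The snoRNA gene Psi18S-176 (31.6, 24.4, 12.7 and 9.79 CPM) and 7SK were lowest there. By class, the median CV beyond counting of neuronal lists ran from 4.43% for side genes and 4.75% for synaptic adhesion genes through 8.15% for KC transcription factors and 12.8% for nicotinic subunits to 14.2% for GABA synthesis and transport. Glial, hemocyte and tracheal genes lay inside that range at 8.91%, 8.96% and 8.54%, and photoreceptor genes at 17.8% and muscle genes at 25.7% lay above it.

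**Figure D5:**
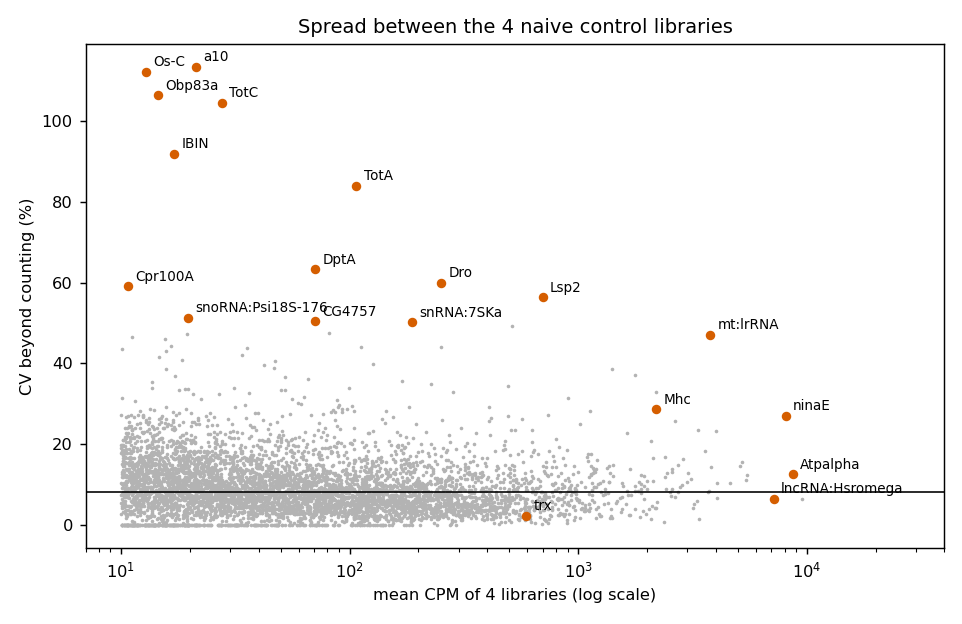
CV beyond counting (in percent, after TMM scaling) against mean CPM (log scale) for the 5701 genes with a mean of 10 CPM or more in the 4 naïve control libraries, 1 point per gene, with the median of 8.12% as a line and named genes in orange. The 13 genes over 50% include antennal, stress and immune genes, and trx lies at 2.40%.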

How the data were processed

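The deposited tables held whole-number counts per gene, 1 table for each library. Per the submitters' processing notes the authors used STAR 2.5.3a, HTSeq 0.7.1 and dm6, while the counting mode, strand setting and annotation release are not given in the sources used here. The row of the Unc84 tag (0.470% to 0.626% of counts) was left out, and CPM was computed from the remaining total. Coordinates and lengths came from the BDGP6.54 annotation of Ensembl, matched by gene ID for 17253 of 17559 genes, and the other 306 IDs (3.59% of counts) entered only counts and ranks by CPM. CPM was divided by kb of exon (main) or by kb of span that no other gene covers, a measure added after seeing the data, as was the limit of 50% unshared span. The CV was computed after edgeR TMM scaling, and the CV beyond counting is the square root of its squared value less the squared counting CV, or 0 where that is negative. Alternatives used edgeR 4.0.16, DESeq2 1.42.0 size factors, R 4.3.3, Python 3.11.15, pandas 2.3.3, numpy 2.4.6 and matplotlib 3.10.9. Simulated data were used to test only the CV beyond counting, without TMM scaling, and the call of detected genes.

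No test was made, because all 4 libraries belong to 1 group. An order between genes was called where it held in 4 of 4 libraries, which is a description, since a sign test over 4 libraries cannot pass 0.05. Named were the 10 coding genes highest by CPM and by CPM per kb, the 10 highest noncoding RNAs, the 10 most variable genes, all members of lists of 10 or fewer genes, the 5 highest of longer lists, the cell type markers and trx, and genes beyond this were added after their values were seen. The gene set and lists were chosen with earlier results of these data known. The 11 libraries of the other groups (trained controls, and naïve and trained trx knockdown) were not used here.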

Additional observations from a re-analysis of the deposited data

Results flagged for a closer look

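Among 339 readable list genes at 10 CPM or more, 14 (4.13%) had 1 library far from the other 3 by Dixon's criterion at its 95% level, where chance gives about 1 in 20. The number is thus no larger than chance gives. CPM was used here without TMM scaling, whose factor was 0.978 in replicate 4 and 1.02 in replicate 2. Whether the narrower gaps hold after that scaling was not tested. In 10 of the 14 the library was replicate 4, which also stood apart as a whole. It was low for the ribosomal protein gene RpL32 (61.8 CPM against 98.4 to 103 in the others), the vesicle fusion gene Rop (138.9 against 164 to 169), the clock gene vri (108 against 134 to 136), the nuclear receptor gene kni (18.1 against 21.97 to 22.3) and Octbeta3R (175 against 183 to 184). It was high for the peptide genes AstC (183 against 84.3 to 91.8) and Trissin (32.9 against 14.5 to 15.4), for RYa-R (13.03 against 10.5 to 10.7), for Oct-TyrR (79.0 against 73.0 to 73.3) and for chinmo (571 against 438 to 453). Replicate 3 was apart for Pdfr (98.9 against 114 to 115.2), Sytalpha (295 against 252 to 258) and Hr39 (207 against 198 to 199), and replicate 2 for the homeobox gene Dr (30.0 against 15.3 to 17.3). Of 23 sums and shares examined in the same way 1 stood apart, the nuclear noncoding share of counts, at 1.84% in replicate 4 against 1.78% to 1.79%.

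The row of the Unc84 tag, which entered no comparison, held 0.540% ± 0.0677 of all counts (SD, n = 4) and from 0.470% to 0.626% in single libraries. No library without the tag was analysed here, so a background for this row was not measured.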

How the results depend on the processing

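Of 199 recomputations of 24 results, 164 moved by less than the spread between libraries (counts, by less than 1.5 times) and 35 moved further. Of the 164, 94 came from leaving out a library, which for shares and ratios cannot exceed that spread. The gene pairs of the ratios below kept their order, and the other results have no direction that could reverse. Neighbouring pairs within the lists are not among these results, and some of them did reverse, as given near the start. All 45 with another scaling (TMM, DESeq2 size factors or the total of coding genes) stayed within these limits. Most of the 45 are percentiles of ranks, which a factor common to all genes of a library can hardly move. The number of detected genes was 8750 at 0.5 CPM, 6594 at 5 CPM, 8626 by the mean and 7863 among readable genes, against 8266. With the span including introns, and with the unshared span, the median percentile of KC transcription factors (95.4) became 87.4 and 86.8, that of the cAMP pathway (92.3) 79.9 and 79.1, nicotinic subunits (96.1) 83.5 and 83.0, dopamine receptors (97.3) 88.0 and 87.4, neuropeptide precursors (78.4) 68.1 and 66.9, peptide receptors (60.9) 44.9 and 44.5, potassium channels (92.5) 80.2 and 82.5, and Hox genes (54.6) 38.2 and 38.0. On the same 2 measures the ratio of Gad1 to ChAT (3.46) was 5.81 and 5.71, that of VGlut to ChAT (1.69) 6.25 and 5.68, and that of ninaE to Syt1 (14.1) 44.2 and 43.4, while 4 of the 10 highest coding genes remained on either. With the longest transcript as length KC transcription factors were at 96.5, the cAMP pathway at 92.8, Hox genes at 58.7 and ninaE to Syt1 at 11.5. Without the 10 genes with most counts the share of noncoding RNA (1.80%) was 1.16%, of coding genes 94.8%, of chromosome 4 2.51% and of the X 16.9%.

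Leaving out each library in turn changed 2 of 96 values by more than the limits given above. Shares and ratios are means over the libraries, and leaving out 1 of 4 cannot move such a mean by as much as the spread. Those values could therefore not have come out as changed. The limit for counts is also wide for the number of detected genes. The 2 of 96 is thus partly set by the rule, and no stability was read from it. The median CV beyond counting ranged from 4.98%, without replicate 4, to 8.48%, and the number of genes over 50% from 11 to 20, the highest without replicate 2. At a minimum of 1 CPM that number was 87 in place of 13. The number of detected genes ranged from 8296 to 8341. No paired analysis was possible because all 4 libraries belong to 1 group. Depth limits the low end, where 3 counts are worth 0.113 to 0.212 CPM.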
